A study of Serinus canaria and Ploceus bicolor and Uraeginthus cyanocephalus with 155 samples.

Results

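The 120 transcripts described here had lower levels, in both the HVC and the entopallium, in female canaries that sang spontaneously outside the breeding season than in non-breeding females that did not sing. They were chosen by their measured values, from 26061 transcripts on the array. Of these, 25453 were kept because their level in the HVC of testosterone-implanted females was not more than 0.3 log2 units below that of the non-singing females. Among them, the 120 with the lowest value of whichever of the HVC and entopallium differences was the higher were taken. Without the condition on testosterone, 24 of the lowest 120 would have been other transcripts. The differences used for the choice are therefore a description and carry no test.

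HVC is a premotor nucleus of the songbird forebrain that controls the pattern of song, and its cells carry receptors for androgens and oestrogens. The entopallium is a visual area of the same forebrain that is not part of the song system. Song in the canary depends on season and on testosterone, and females sing far less than males, which makes spontaneously singing females unusual.

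Tissue of adult birds was measured on arrays with zebra finch probes. There were 66 HVC arrays, 65 entopallium arrays and 24 arrays of the molecular layer of the cerebellum, these last only from canaries. The canary groups with HVC and entopallium arrays were testosterone-implanted singing males on short days, singing males breeding on long days, untreated non-singing males on short days, untreated spontaneously singing females on short days, testosterone-implanted singing females on short days, non-singing females breeding on long days, and untreated non-singing females on short days. The last group is called non-singing females below. Cerebellum was taken from breeding and non-breeding males and females of the canary, and singing forest weavers and blue-capped cordon-bleus of both sexes, all labelled as breeding on long days, made up the rest. The methods describe the forest weavers as caught in their breeding territories. Every group held 6 arrays except the non-singing females in the entopallium, with 5. The labels give 1 HVC array more of the non-singing females than the study's sample listing does, and all were used. The implanted birds carry a treatment protocol of no treatment in one description, against testosterone in their other descriptions and in the study's methods, which were followed.

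The same 6 singing females gave both HVC and entopallium, and 5 of the 6 non-singing females did, so that the values of both regions come from the same birds. The canary groups differ in sex, season, treatment or singing, and several of these change together between some groups. The spontaneously singing females were found in an earlier long-term monitoring and their arrays were included in the study. Their singing and this separate origin cannot be told apart. In dissected tissue, fewer cells of a type and less RNA per cell cannot be told apart.

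The transcript identifiers could not be paired with gene names, since 0 of the 26061 identifiers matched the canary reference table and the files do not name them. The check of the regions against cell type markers and of pathways was therefore not made. Of the 120 identifiers, 57 began with XM (47.5%, against 40.2% of all transcripts) and 46 with ENSTGUT (38.3%, against 45.8% of all transcripts). Few of the transcripts had nearly equal profiles, with 7 of 7140 pairs above a correlation of 0.9 over all arrays and 0 above 0.97. Without names, entries for the same gene could not be recognised, so the counts may include a gene more than once.

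The arrays of the spontaneously singing females differed from the other canary arrays at the low end of their scale. Their 1st percentile lay between 3.18 and 3.37 in HVC, against 2.65 to 2.95 in the other 36 canary HVC arrays, and between 3.22 and 3.43 in the entopallium, against 2.63 to 3.03 in the other 35. The array medians overlapped. Among the canary groups, the spontaneously singing females had the highest mean for 39.9% of all transcripts in HVC and 35.0% in the entopallium. Over all transcripts, the median difference between singing and non-singing females was 0.09 in HVC and 0.11 in the entopallium. It was 0.39 and 0.34 in these regions for the decile of transcripts with the lowest mean level, and -0.03 and -0.02 for the decile with the highest. Of the 120 transcripts, all chosen for a difference below 0, 79 lay above the median of the mean level, 49 in its highest quartile and 21 in its lowest quartile. The part of the low end of these arrays, and of their many high means, in the choice of transcripts was not tested.

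**Figure D1:**
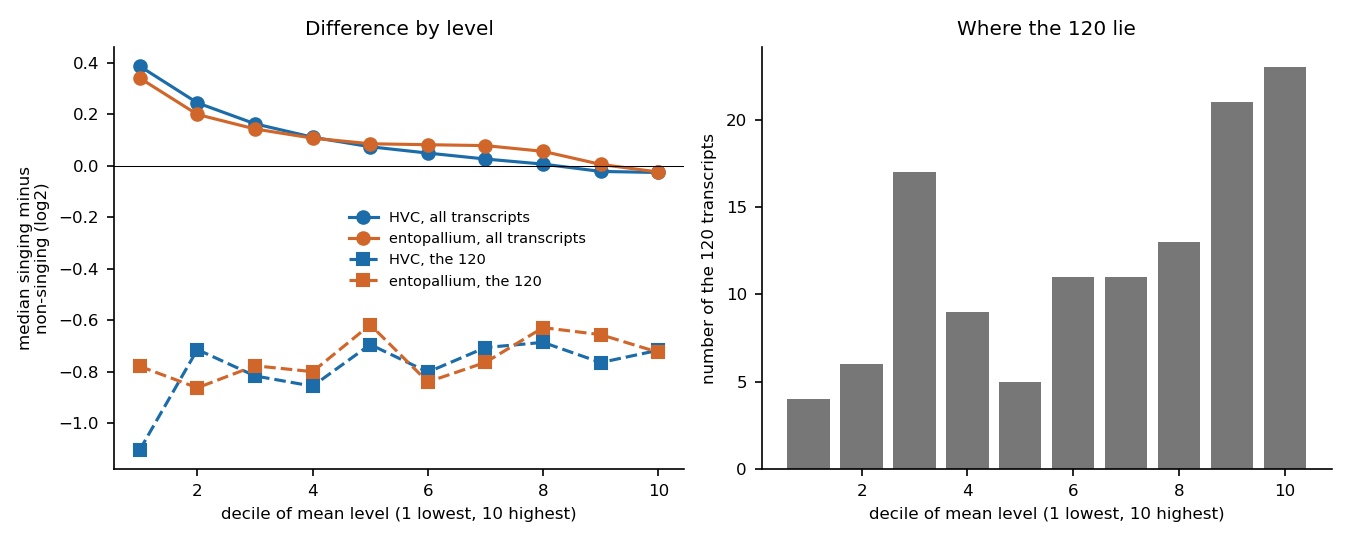
Left, median difference between spontaneously singing and non-singing females (log2, vertical axis) by decile of the mean transcript level over all arrays (horizontal axis), for all transcripts (circles, solid lines) and for the 120 chosen transcripts (squares, dashed lines), in HVC and entopallium. Right, number of the 120 transcripts in each decile, with 23 in the highest and 4 in the lowest. The differences of all transcripts fall with level, whereas those of the 120 were below -0.5 in every decile because they were chosen for it.

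In the spontaneously singing females, the median level of the 120 transcripts was 7.54, 7.74 and 7.82 in HVC (lowest, median and highest array, log2 scale), against 8.37, 8.47 and 8.52 in the non-singing females. In the entopallium it was 7.20, 7.46 and 7.52 in the singing females, against 8.10, 8.15, 8.13, 8.19 and 8.19 in the 5 arrays of the non-singing females. The groups did not overlap in this median in either region, which the choice of transcripts favours. A pair of singing females, replicates 3 and 5, were lowest in the entopallium with 7.20 and 7.24. Their HVC arrays, at 7.78 and 7.70, were not the lowest of the group. With these 2 entopallium arrays left out, the choice kept 103 of the 120 transcripts, an alternative added after the values were seen.

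**Figure D2:**
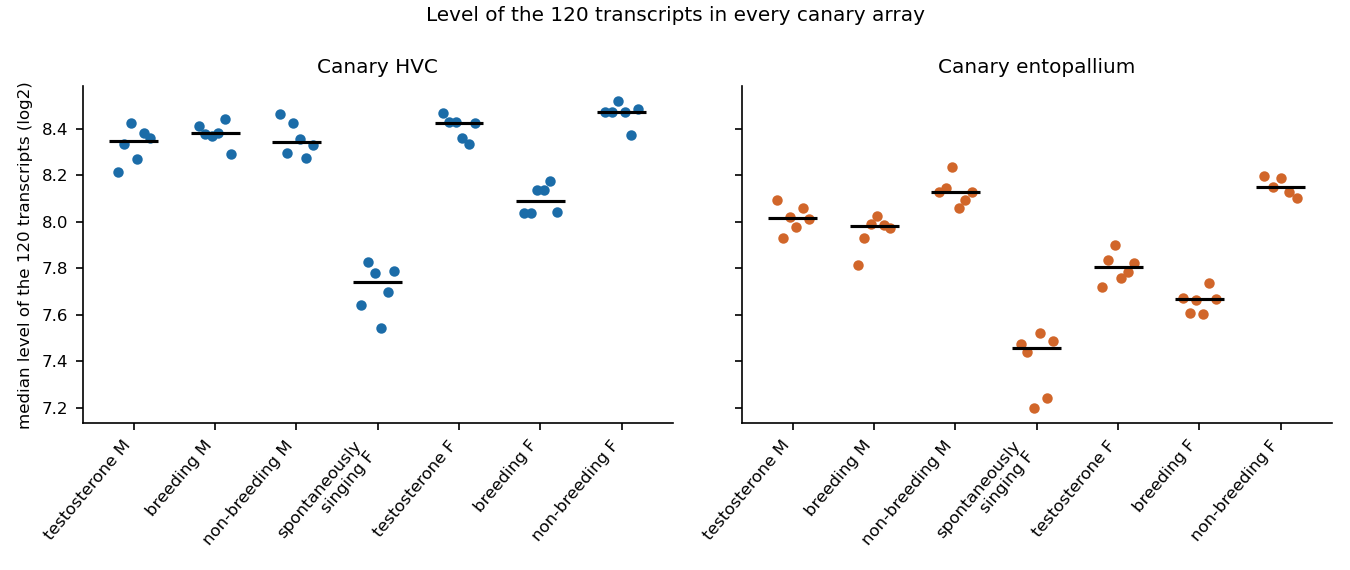
Median level (log2) of the 120 transcripts in every canary array of HVC (left) and entopallium (right), by group. Each point is an array and each line the median of the group, M marks males and F females. The spontaneously singing females lie between 7.54 and 7.82 in HVC and between 7.20 and 7.52 in the entopallium, below the arrays of all other groups in the same region.

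Individual differences between the singing and non-singing females ranged between -1.58 and -0.55 in HVC, with a median of -0.75, and between -2.58 and -0.55 in the entopallium, with a median of -0.71. The fall was larger in HVC for 67 transcripts and larger in the entopallium for 53. A difference of at least 1 log2 unit was found for 20 transcripts in HVC, for 23 in the entopallium and for 4 in both. The arrays of the singing females lay wholly below those of the non-singing females for 84 of the 120 in HVC (7.26% of all transcripts) and for 73 in the entopallium (5.01% of all transcripts). The choice used these same arrays and favours such counts, so they are no test. The last 2 transcripts inside the limit had a higher value of -0.550, and the first 2 outside it had -0.544 and -0.542, so that there is no gap at the limit.

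**Figure D3:**
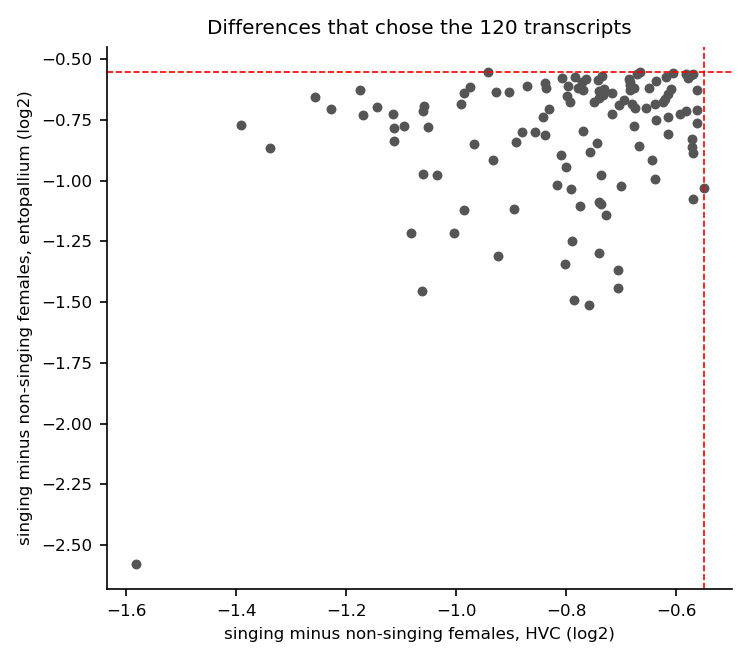
Difference between spontaneously singing and non-singing females in HVC (horizontal axis, log2) and in the entopallium (vertical axis, log2) for each of the 120 transcripts. Dashed lines mark the limit of the choice at -0.550, most points lie near it, and 4 transcripts are at or below -1 on both axes.

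XM_002200380 headed the ranking. In HVC its level was 5.88, 6.33 and 7.12 in the singing females (lowest, median and highest) and 7.73, 8.02 and 8.49 in the non-singing females, a difference of -1.58. In the entopallium it was 5.99, 5.75, 2.57, 6.64, 3.99 and 6.09 in the 6 singing females, against 7.73, 7.72, 8.19, 7.80 and 7.33 in the 5 non-singing females, a difference of -2.58. The very low values of 2.57 and 3.99 belong to the same replicates 3 and 5, and without these arrays the difference was -1.64. The groups did not overlap in either region.

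XM_002196468, the next in the ranking, had a high level and varied less between birds. Its level was 11.07, 11.30 and 11.44 in the HVC of singing females (lowest, median and highest) and 12.30, 12.36 and 12.45 in that of non-singing females. In the entopallium it was 10.52, 10.69 and 10.78 in singing females, against 11.99, 11.92, 11.75, 12.05 and 11.67 in the non-singing females. The differences were -1.08 and -1.21, and the difference in the entopallium was -1.20 without replicates 3 and 5. Breeding females, with 11.65 to 11.87 in HVC and 11.14 to 11.39 in the entopallium, lay between the singing and the non-singing females in both regions.

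**Figure D4:**
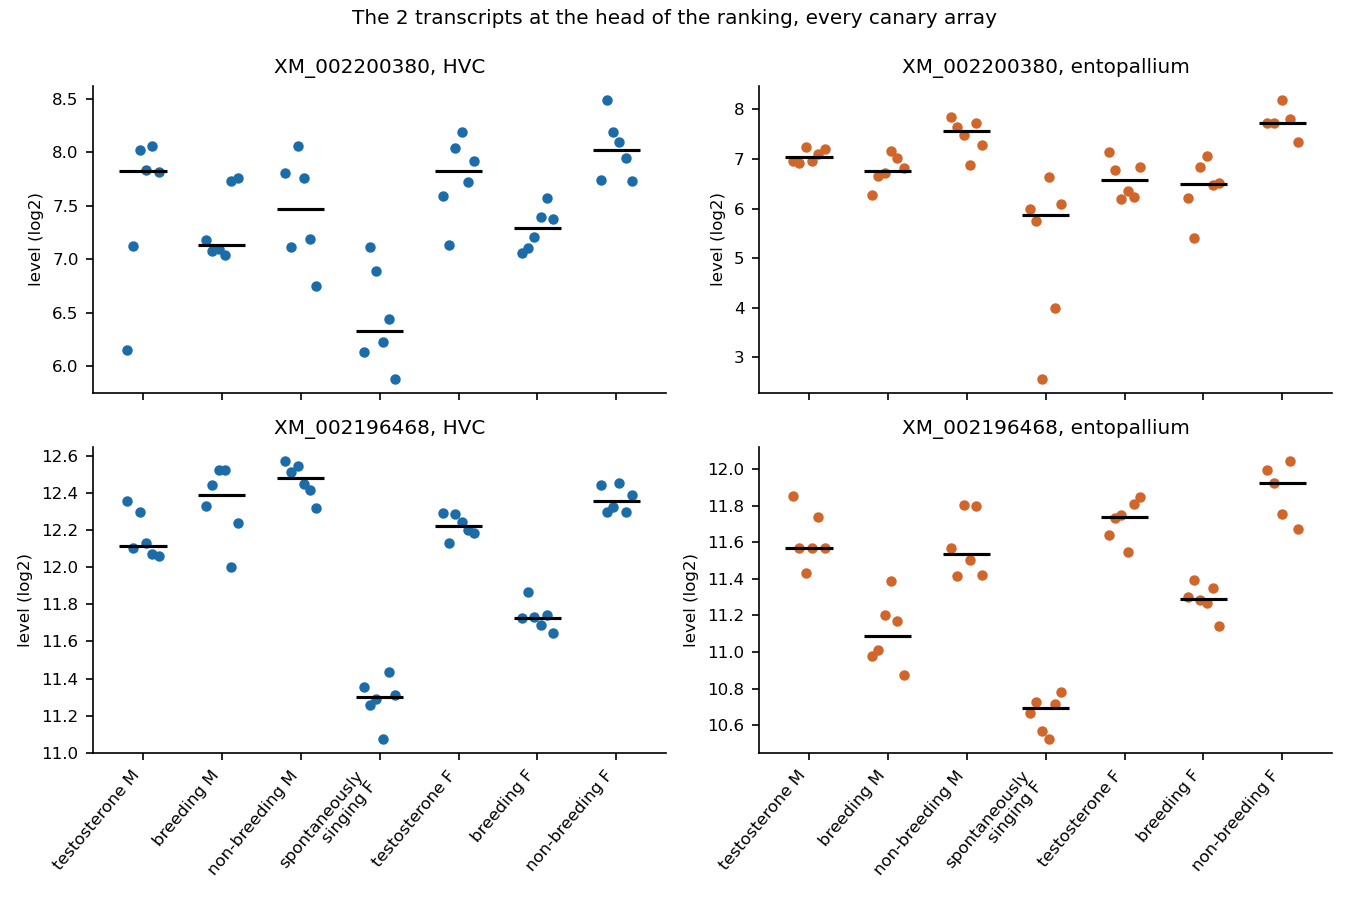
Level (log2, vertical axis, with a range of its own in each panel) of XM_002200380 (top) and XM_002196468 (bottom) in every canary array of HVC (left) and entopallium (right), by group. Each point is an array and each line the group's median. For XM_002200380 in the entopallium, 2 of the 6 spontaneously singing females are at 2.57 and 3.99. For XM_002196468 the 6 singing females are below every other array in both regions.

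Testosterone-implanted and breeding females also lay below the non-singing females for most of the 120. The choice favours transcripts that are high in the non-singing arrays and low in the singing arrays. Differences from either group can therefore follow from the choice alone. The values that follow share the non-singing females, or the singing females, with the choice and are given without a test. In HVC the difference between testosterone-implanted and non-singing females had a median of -0.10, with 85 of the 120 below 0 (57.3% of all transcripts), and was limited from below by the choice. In the entopallium, which the condition on testosterone did not use, the same difference had a median of -0.54, with 103 below 0 (48.2% of all transcripts) and 69 at or below -0.5 (3.23%). The median over all transcripts was 0.01. Breeding females differed from the non-singing females by a median of -0.36 in HVC, with 100 of the 120 below 0 (52% of all transcripts), and of -0.52 in the entopallium, with 112 below 0 (43.9%).

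The difference between spontaneously singing and breeding females had a median of -0.44 in HVC, with 111 of the 120 below 0 (32.3% of all transcripts), and of -0.25 in the entopallium, with 101 below 0 (35.5%). Between spontaneously singing and testosterone-implanted females the median was -0.68 in HVC, with 120 below 0 (35.2% of all transcripts), and -0.21 in the entopallium, with 90 below 0 (35.3%). Of the 7 canary groups, the singing females had the lowest mean for 106 of the 120 in HVC (14.8% of all transcripts) and for 73 in the entopallium (10.3%). In the entopallium the implanted females had the lowest for 30 (22.1% of all transcripts) and the breeding females for 11 (11.2%), shares near those of all transcripts. The non-singing females had the highest mean for 50 of the 120 in HVC (9.51% of all transcripts) and for 61 in the entopallium (10.2%).

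The remaining comparisons used only arrays that played no part in the choice. They were tested with limma over all 26061 transcripts, and calls required a Benjamini-Hochberg adjusted p under 0.05 together with a difference of 0.5 log2 units or more in size. Beside each count stands the percentage of all transcripts called in the same way, except in fits with a block or with arrays or transcripts left out. The p-values test each group difference against the spread between arrays within groups, which limma moderates over all transcripts. In the region comparisons and the interaction, HVC and entopallium arrays of the same bird were treated as independent. The region fits of forest weavers and cordon-bleus held both sexes, with sex as a covariate.

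Between the sexes in breeding canaries, most of the 120 that were called had the higher level in males. In HVC, 27 of the 120 were higher in males (2.1% of all transcripts) and 3 were lower (1.23%). In the entopallium, 28 were higher in males (2.29%) and 2 were lower (0.955%). The median difference of the 120, males minus females, was 0.23 in HVC and 0.28 in the entopallium. The transcripts called higher in both regions numbered 18 of the 120, against 1.02% of all transcripts. The breeding males sang and the breeding females did not, so sex and singing cannot be told apart here.

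ENSOANT00000007234 had the largest difference among these in HVC. Its level was 8.56, 8.69 and 8.94 in breeding males (lowest, median and highest) and 7.41, 7.47 and 7.62 in breeding females. In the entopallium it was 8.54, 8.67 and 8.73 in breeding males and 7.45, 7.54 and 7.75 in breeding females. The differences were 1.20 ± 0.063 in HVC (SE, limma adjusted p = 3.32e-07) and 1.09 ± 0.054 in the entopallium (SE, limma adjusted p = 1.37e-07). No array of one sex reached the range of the other, which was a condition for naming the transcript. In spontaneously singing females it was at 6.68 to 7.3 in HVC, below the breeding females, and at 6.88 to 7.58 in the entopallium, overlapping with them.

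ENSTGUT00000007492 was at 6.56, 7.22 and 7.29 in the HVC of breeding males, against 4.79, 6.08 and 6.51 in that of breeding females, a difference of 1.19 ± 0.248 (SE, limma adjusted p = 0.00354). ENSTGUT00000011106 was at 7.34, 7.51 and 7.91 in the entopallium of breeding males, against 5.91, 6.41 and 6.87 in that of breeding females, a difference of 1.19 ± 0.153 (SE, limma adjusted p = 0.000125). The opposite was seen for ENSTGUT00000003833, at 5.42, 5.63 and 6.12 in the entopallium of breeding males and 6.14, 6.84 and 7.13 in that of breeding females, a difference of -1.04 ± 0.156 (SE, limma adjusted p = 0.000386). For ENSTGUT00000011106, spontaneously singing and non-singing females overlapped in HVC, with medians of 7.08 and 7.11. Its low values in singing females were 4.66 and 4.29 in HVC replicates 4 and 5, and 4.98 and 4.03 in entopallium replicates 3 and 5.

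Further comparisons of the sexes were added after these values had been seen. In the entopallium of testosterone-implanted birds, where both sexes sang on short days, 42 of the 120 were higher in males (2.92% of all transcripts) and 8 were lower (3.37%), with a median difference of 0.38 for the 120 and 0.01 for all transcripts. Of the implanted females, 5 had an HVC array among those used for the choice. In the HVC of implanted birds and in both regions of non-breeding birds no comparison was made, since the females' arrays were used. There the group medians of the 120 were not higher in males. They were 8.35 in males and 8.43 in females for implanted HVC, 8.34 and 8.47 for non-breeding HVC, and 8.13 and 8.15 for non-breeding entopallium. The choice can favour high levels in these females. The median level of the 120 per array was 7.93 to 8.09 in the entopallium of implanted males and 7.72 to 7.90 in that of implanted females, without overlap.

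The sex difference of the 120 was small in the cerebellum and in the other species. In the cerebellum, 2 were higher in breeding males (0.437% of all transcripts) and 1 was lower (0.111%), and 2 were higher in non-breeding males (0.675%) and 0 lower (0.104%). In cordon-bleus, 2 were higher in males in HVC (1.04%) and 2 in the entopallium (1.01%), with 0 lower in either region (0.0614% and 0.0192%). In forest weavers, 0 were called in HVC (0% of all transcripts, with 7 of the 120 and 5.55% of all transcripts at an unadjusted p under 0.05 in limma), and 2 were higher in males in the entopallium (0.875%) with 0 lower (0.0537%). The medians of the 120 in these comparisons lay between -0.08 and 0.02. Whether the sex difference itself differed between tissues or species was not tested.

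The few transcripts called in these comparisons were largely shared, and they were picked out after their values had been seen. ENSOANT00000007234 was called higher in males in both cerebellum comparisons, in both regions of cordon-bleus and in the entopallium of forest weavers. In the HVC of cordon-bleus it was at 7.53, 7.63 and 7.68 in males and 6.71, 7.0 and 7.3 in females. In the non-breeding cerebellum it was at 7.54, 7.64 and 8.01 in males and 6.79, 6.94 and 7.54 in females. In the HVC of forest weavers the difference was 0.53 ± 0.167 and was not called (SE, limma adjusted p = 0.639). XR_054666 was called higher in males in the non-breeding cerebellum and in both regions of cordon-bleus, with differences of 0.74, 0.63 and 0.73. ENSTGUT00000007492 was called higher in males in the breeding cerebellum, with 0.76, and in the entopallium of forest weavers, with 1.26. The transcript lower in breeding males in the cerebellum was XM_002198246, with -0.64.

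**Figure D5:**
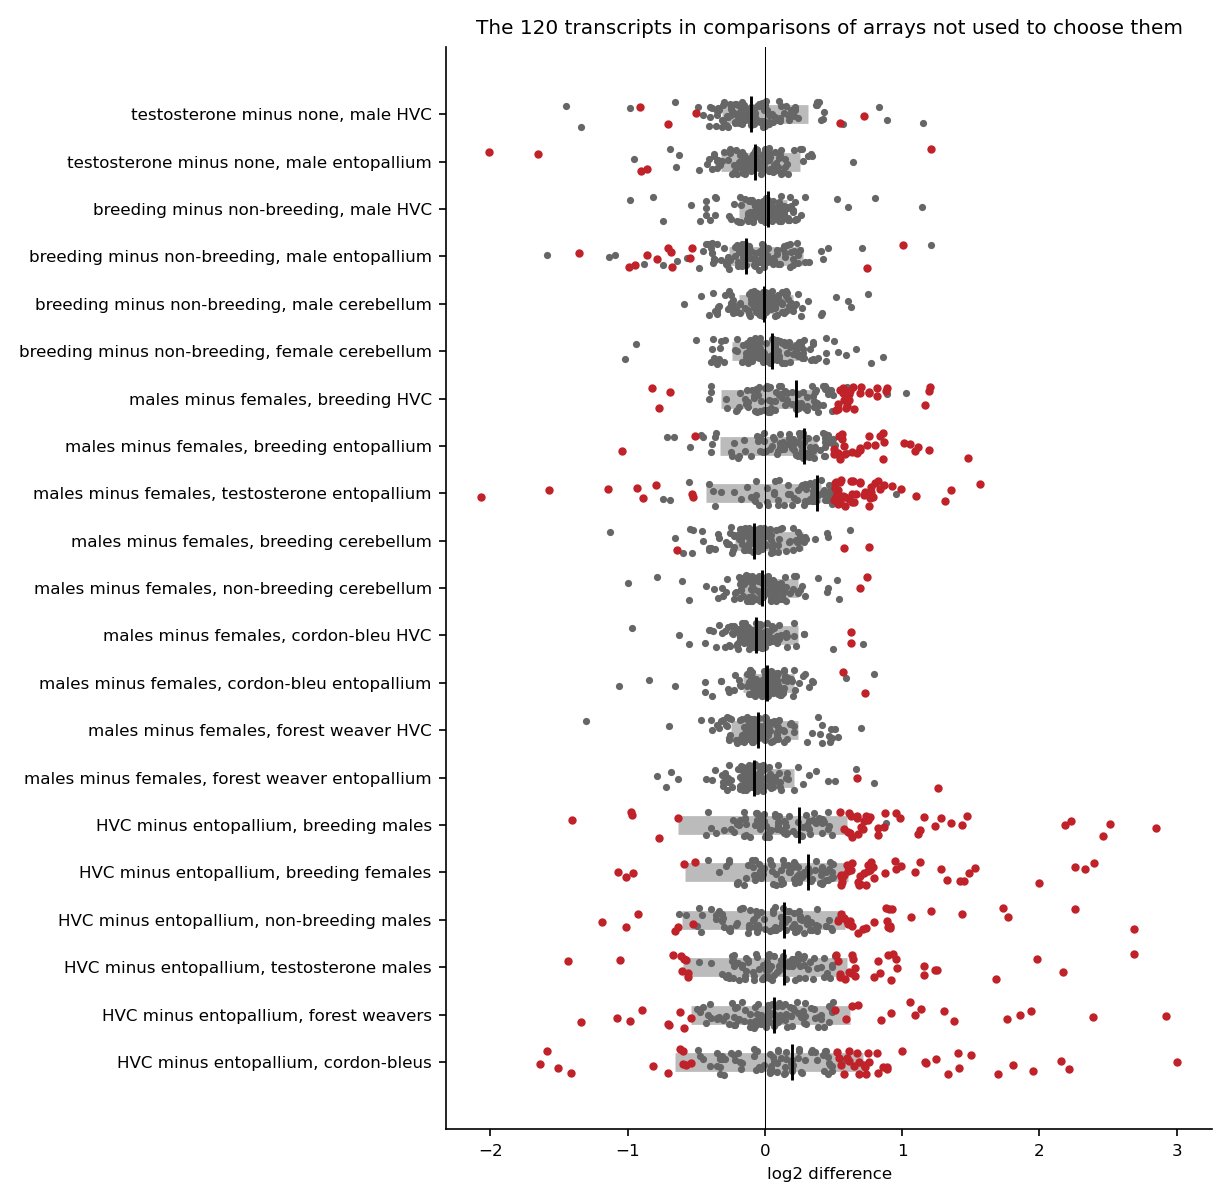
Log2 difference (horizontal axis) of each of the 120 transcripts in 21 comparisons between arrays that were not used to choose them. Points are transcripts, red where called, black ticks mark the median of the 120 and grey bars run between the 5th and 95th percentile of all transcripts. The medians stand furthest to the right for HVC minus entopallium in breeding canaries and for males minus females in canaries (0.23 to 0.38). The latter are those in breeding HVC, breeding entopallium and testosterone entopallium. Other sex comparisons of the canary forebrain would use arrays of the choice and are not drawn.

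Between breeding and non-breeding males, 12 of the 120 were called in the entopallium. The breeding males sang and the non-breeding males did not, so season and singing cannot be told apart. Of the 12, 2 were higher in breeding than in non-breeding males (0.66% of all transcripts) and 10 were lower (0.353%), with a median difference of -0.14. XM_002195678 was at 6.99, 7.12 and 7.32 in breeding males and 6.24, 6.38 and 6.62 in non-breeding males, a difference of 0.75 ± 0.077 (SE, limma adjusted p = 0.0002). ENSTGUT00000003833 was at 5.42, 5.63 and 6.12 in breeding males and 6.44, 6.73 and 6.95 in non-breeding males, a difference of -0.99 ± 0.121 (SE, limma adjusted p = 0.000466). XM_002191598 was at 5.94, 6.25 and 6.71 in breeding males and 7.06, 7.21 and 7.35 in non-breeding males, a difference of -0.95 ± 0.117 (SE, limma adjusted p = 0.000466). The ranges of breeding and non-breeding males were apart for all of these, which was a condition for naming them.

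In the HVC of males 0 of the 120 were called for season by limma (0.0192% of all transcripts in either direction), with 19 at an unadjusted p under 0.05 (10.3%) and a median difference of 0.02. In the cerebellum 0 were called in males (0.0115%) and 0 in females (0.138%), with 11 and 32 at an unadjusted p under 0.05 in limma (8.07% and 16.2% of all transcripts). The season comparison in the forebrain of females shares the non-singing females with the choice and is given above without a test.

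The comparison of testosterone-implanted males, which sang, with untreated non-breeding males, which did not, called 2 of the 120 higher (0.695% of all transcripts) and 3 lower (0.491%) in HVC. In the entopallium it called 1 higher (0.426%) and 4 lower (1.06%). With so few called, the overlap of the calls between the regions was not assessed. The medians were -0.10 in HVC and -0.07 in the entopallium. In HVC, XM_002198546 was at 10.17, 10.82 and 11.09 in implanted males and 11.38, 11.64 and 11.68 in untreated males, a difference of -0.91 ± 0.150 (SE, limma adjusted p = 0.00929). ENSTGUT00000017053 was at 6.79, 7.35 and 7.61 in the HVC of implanted males and 7.83, 7.96 and 8.27 in that of untreated males, a difference of -0.71 ± 0.123 (SE, limma adjusted p = 0.0115).

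In the entopallium, ENSTGUT00000010261 was at 4.95, 5.81 and 6.03 in implanted males and 6.27, 6.56 and 6.83 in untreated males, a difference of -0.86 ± 0.159 (SE, limma adjusted p = 0.00364). These ranges do not overlap, which was a condition for naming the transcript. The count in HVC moved with single arrays. It was 9 without implanted replicate 6, 3 without untreated replicate 1, and 2 without implanted replicates 2 or 4 or untreated replicates 2, 4 or 6. In the entopallium it was 2 without implanted replicate 3, and 3 without implanted replicate 6 or untreated replicate 2. In a fit with the replicate number as a block, 0 were called in HVC and 3 in the entopallium. The share of all transcripts called in these altered fits is not given, and whether the changes are particular to the 120 was not tested. The change with testosterone in HVC minus that in the entopallium was called for 5 of the 120 above 0 (2.09% of all transcripts) and 5 below 0 (1.38%), together 10 of the 120 (3.47%).

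The 120 transcripts also differed between the regions, and most of those called were higher in HVC than in the entopallium. In breeding males 35 were higher in HVC (6.4% of all transcripts) and 5 lower (7.51%). In breeding females 38 were higher (6.38%) and 5 lower (6.4%). In non-breeding males 25 were higher (6.23%) and 6 lower (6.66%), and in testosterone-implanted males 27 were higher (6.43%) and 9 lower (6.95%). The same 16 transcripts were higher in HVC in all 4 of these groups (3.9% of all transcripts), and 2 were lower in all 4 (3.44%). The median difference was 0.31 in breeding females, 0.25 in breeding males, 0.14 in non-breeding males and 0.14 in implanted males.

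In the other species, too, more of the 120 were higher than lower in HVC. In cordon-bleus 35 of the 120 were higher in HVC (8.27% of all transcripts) and 11 lower (8.09%). In forest weavers 16 were higher (6.5%) and 9 lower (5.71%). In all, 8 transcripts were higher in HVC in all 6 groups of birds (2.57% of all transcripts) and 0 were lower in all 6 (1.97%).

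ENSTGUT00000002013 was among these. In breeding males it was at 9.98, 10.04 and 10.34 in HVC and 6.82, 7.40 and 7.51 in the entopallium, a difference of 2.85 ± 0.115 (SE, limma adjusted p = 4.84e-10). In testosterone-implanted males it was at 9.65, 9.76 and 9.82 in HVC and 6.91, 7.05 and 7.21 in the entopallium, and the difference was 2.69 ± 0.061 (SE, limma adjusted p = 1.98e-12). In male forest weavers it was at 9.80, 9.95 and 10.01 in HVC, against 6.33, 6.80 and 7.20 in the entopallium. In the spontaneously singing females the regions did not overlap either, with 9.38 to 9.58 in HVC and 6.71 to 7.19 in the entopallium. In each of the 7 canary groups the lowest HVC array lay above the highest entopallium array.

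ENSTGUT00000013510 behaved alike, with 9.55, 9.63 and 9.89 in the HVC of breeding females and 6.78, 7.24 and 7.88 in their entopallium, a difference of 2.40 ± 0.138 (SE, limma adjusted p = 8.55e-09). In cordon-bleus ENSTGUT00000007709 had the largest difference, with 10.17, 10.26 and 10.37 in the HVC of males, against 6.91, 7.41 and 8.47 in their entopallium. Over both sexes this came to 3.00 ± 0.141 (SE, limma adjusted p = 8e-16). ENSTGUT00000011366 was lower in HVC. It was at 8.21, 8.52 and 8.77 in the HVC of implanted males and 9.51, 9.98 and 10.37 in their entopallium, a difference of -1.44 ± 0.132 (SE, limma adjusted p = 9.14e-07).

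Over the 14 comparisons first planned, 95 of the 120 transcripts were called in at least 1 (32.3% of all transcripts) and 25 in none (67.7%). Birds of a group varied more in the 120 than in other transcripts. In the HVC of spontaneously singing females the median SD over birds was 0.248 for the 120 and 0.162 for all transcripts, and in that of breeding females it was 0.176 and 0.105. The arrays of the singing females, unlike those of the breeding females, were used in the choice. The choice can favour transcripts that vary more in those arrays. The deviations of the birds from their group means also correlated more between the 120 than between transcripts in general. In arrays not used for the choice, the mean correlation between pairs of the 120 was 0.110 in HVC (24 arrays), 0.040 in the entopallium (30 arrays) and 0.139 in the cerebellum (24 arrays). Over all transcripts it was 0.025, 0.015 and 0.025 in the same regions. These values are descriptions over transcripts measured on the same arrays, and all are low.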

How the data were processed

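RNA of HVC, entopallium and cerebellum was hybridised to a custom Affymetrix exon array with zebra finch probes. The deposited values are log2 levels of 26061 transcripts per array, summarised and normalised by the authors. Affymetrix Expression Console is named in their notes, without a version or settings. No further normalisation or filter was applied. The number of birds limits the precision. Among 385 within-group array pairs, 0 were identical.

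Tests were run in R 4.3.3 with the lmFit and eBayes functions of limma 3.58.1 at their defaults, and p-values were adjusted after Benjamini-Hochberg over the whole table. Tests were checked on simulated data. The members of the list and the comparisons were chosen with earlier results of these data known. Transcripts named were the 2 at the head of the ranking and, for each comparison, the called transcripts with the largest difference whose groups do not overlap, at most 2 in each direction. Lists of genes and cell type markers could not be applied, since identifiers had no names.

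Replicate numbers mark the same bird in both regions for breeding females, singing females, non-breeding males and testosterone-implanted males, and for male cordon-bleus. Elsewhere the same number does not mark the same bird throughout. Alternatives were scaling to the same total intensity, quantile normalisation, removal of the dimmest 25% of transcripts, a replicate block and omission of each array.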

Additional observations from a re-analysis of the deposited data

Results flagged for a closer look

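An array stood far from the others of its group in 7 of 119 groups of levels tested, and chance gives about 1 in 20. The median level of the 120 transcripts was lowest, at 8.37, in the HVC of non-singing females replicate 5, against 8.47 to 8.52 in the other arrays. In non-breeding males, XM_002198546 was lowest in HVC replicate 2, at 11.38, and XM_002194938 was highest in HVC replicate 5, at 7.53. ENSTGUT00000010261 was lowest in the entopallium of testosterone-implanted males replicate 2, at 4.95. ENSTGUT00000002013 was highest in the entopallium of non-breeding males replicate 1, at 7.75, and lowest in the HVC of female forest weavers replicate 1, at 9.11. ENSTGUT00000013510 was highest in the HVC of breeding females replicate 3, at 9.89.

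The change with testosterone in males differed between HVC and entopallium for 10 of the 120 transcripts, by an interaction term, with 5 above 0 and 5 below 0 (3.47% of all transcripts in either direction).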

How the results depend on the processing

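The choice kept 117 of the 120 transcripts after scaling to the same total intensity and 95 after quantile normalisation. It kept 113 with 5 non-singing females in HVC and 106 to 115 when each array was left out. Without the dimmest 25% it kept 99, a number fixed in advance, since only the 21 in the lowest quartile could drop out. Scaling and quantile normalisation moved no count of calls by over 1.5 times. For the counts of the other alternatives, the share of all transcripts called is not given. Without the dimmest 25%, season in the female cerebellum had 2 calls, against 0. With a replicate block, testosterone in male HVC had 0 calls (XM_002198546 and ENSTGUT00000017053 at limma adjusted p of 0.0612 and 0.0708) and in male entopallium 3, against 5 each. Sex in the breeding cerebellum then had 1, against 3, and sex in forest weaver entopallium 1, against 2. Numbers mark no shared birds in these, and the deviations of equal numbers correlated at -0.31 to 0.04 in male HVC. The block moved no other count by over 1.5 times, including the regions of breeding females, non-breeding males and implanted males, where it marks the same bird.

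With each array left out, testosterone in male HVC had 2 to 9 calls. There were 9 without implanted replicate 6, 3 without untreated replicate 1, and 2 without implanted replicates 2 or 4 or untreated replicates 2, 4 or 6. In male entopallium there were 2 to 7, with 2 without implanted replicate 3 and 3 without implanted replicate 6 or untreated replicate 2. The interaction had 6 to 14, with 6 without untreated HVC replicate 6. Season gave 10 to 14 in male entopallium and 0 to 1 in female cerebellum (1 without non-breeding replicate 6). Sex gave 26 to 31 in breeding HVC, 25 to 32 in breeding entopallium, 43 to 50 in implanted entopallium, 1 to 3 in breeding cerebellum (1 without female replicates 1, 3, 4 or 5 or male replicates 1 or 5), 0 to 2 in forest weaver HVC (2 without female replicate 4) and 1 to 3 in forest weaver entopallium (1 without male replicate 1 or female replicates 1 or 6). No named transcript changed sign under these alternatives. The median difference of the 120 changed sign when single arrays were left out in 3 comparisons where it lay near 0, season in male cerebellum (-0.04 to 0.01), sex in non-breeding cerebellum (-0.03 to 0.02) and the interaction (-0.04 to 0.01).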
